A study of Mus musculus with 6 samples.

Results

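The 42 genes described here encode the machinery of mitosis: the cyclins and kinases that drive cells into division, the spindle, its motors and checkpoint, the centromere proteins, the cytokinesis proteins and the transcription factors that switch the set on. They were chosen by name from what is known of their function, by a rule that uses no measured value, although earlier results of these data were known when the list was made. Of them 41 had a probe, all 41 of which were tested among 19741 genes and transcripts; Prc1 had no probe by accession. The data are 6 one-colour Agilent Whole Mouse Genome arrays of primary astrocytes cultured from the cerebral cortex of C57BL/6 mouse fetuses (embryonic day 18, a purchased culture). In 1 group the cells received precursors of the 3 family members miR-29a, b and c, mixed in the molar proportion 1 to 2 to 1, and in the other a negative control precursor, both at 80 nM with a lipid reagent, 3 weeks after plating; RNA was taken 48 h later. The submitters checked with a fluorescent precursor that most cells took up the RNA. Each group holds 3 arrays from RNA extracted in triplicate, and nothing in the labels says that separate cultures were used. The p-values therefore measure the spread between these samples only, which may be technical.

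A cell enters mitosis when CDK1 bound to an A- or B-type cyclin is switched on by CDC25 phosphatases. Chromosomes then condense, kinetochores attach to spindle microtubules, and a checkpoint holds back the anaphase-promoting complex until each chromosome is attached. Most of these genes are transcribed late in the cell cycle and silenced in resting cells, through promoter elements bound by the DREAM and MuvB complexes, the factor FOXM1 and B-MYB. Their summed level is therefore widely read as a sign of dividing cells. In bulk RNA, fewer dividing cells and less RNA in each dividing cell cannot be told apart.

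MicroRNAs of the miR-29 family pair with messenger RNAs through bases 2 to 8, the seed. The labels name the human precursors, and the mouse mature sequences of RefSeq (GRCm38.p6) are shown with the seed in capitals because these 3 RNAs are the treatment. All 3 share the seed.
miR-29a-3p: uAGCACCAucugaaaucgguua
miR-29b-3p: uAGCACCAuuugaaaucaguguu
miR-29c-3p: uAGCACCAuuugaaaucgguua

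Between 62.5% and 67.3% of the spots were well above background on each array, and 0 were saturated. Correlations across genes were 0.994 to 0.998 within groups and 0.975 to 0.985 between them. The 3 miR-29 arrays shared slide 1 with control replicate 1, and the remaining controls were on slide 2. Values below are log2 signals minus the 75th percentile of the same array, so 0 marks that percentile, and the values on the 3 arrays of a group are given in the order of replicates 1, 2 and 3. A probe's level says nothing about the level of another gene.

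Genes of mitosis were lower after miR-29 across almost the whole set. Of the 41 genes tested 36 fell, 1 rose and 4 missed the threshold (limma with Benjamini-Hochberg adjustment over all genes tested, threshold 0.05). The median log2 fold change was -0.81, against 0.068 over all genes tested. Over all genes tested 22.7% were called lower and 35.3% higher. The largest falls were those of Ccna2, Aurkb and Cdca8, and the gene that rose was Pttg1. At least 2-fold falls were found in 15 of the 41, where 3.64% of all genes fell that far. This count was 9 with normexp background correction (1.85% of all genes) and 22 with spike-in scaling (6.9%). The 3 miR-29 arrays lay below the 3 control arrays without overlap for 37 of the 41, and above them for 1; over all genes the shares were 26.3% and 39.8%. Relative to the control mean, the median over the 41 genes was -0.80, -0.70 and -0.80 after miR-29, and 0.015, -0.036 and 0.012 in the control replicates. The spread within groups was small beside this: the median SD was 0.081 over the miR-29 arrays and 0.076 over the control arrays (n = 3 each). Of the 41 genes 40 were well above background on all 6 arrays, so most of these falls lie within the measured range and are no bounds.

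**Figure D1:**
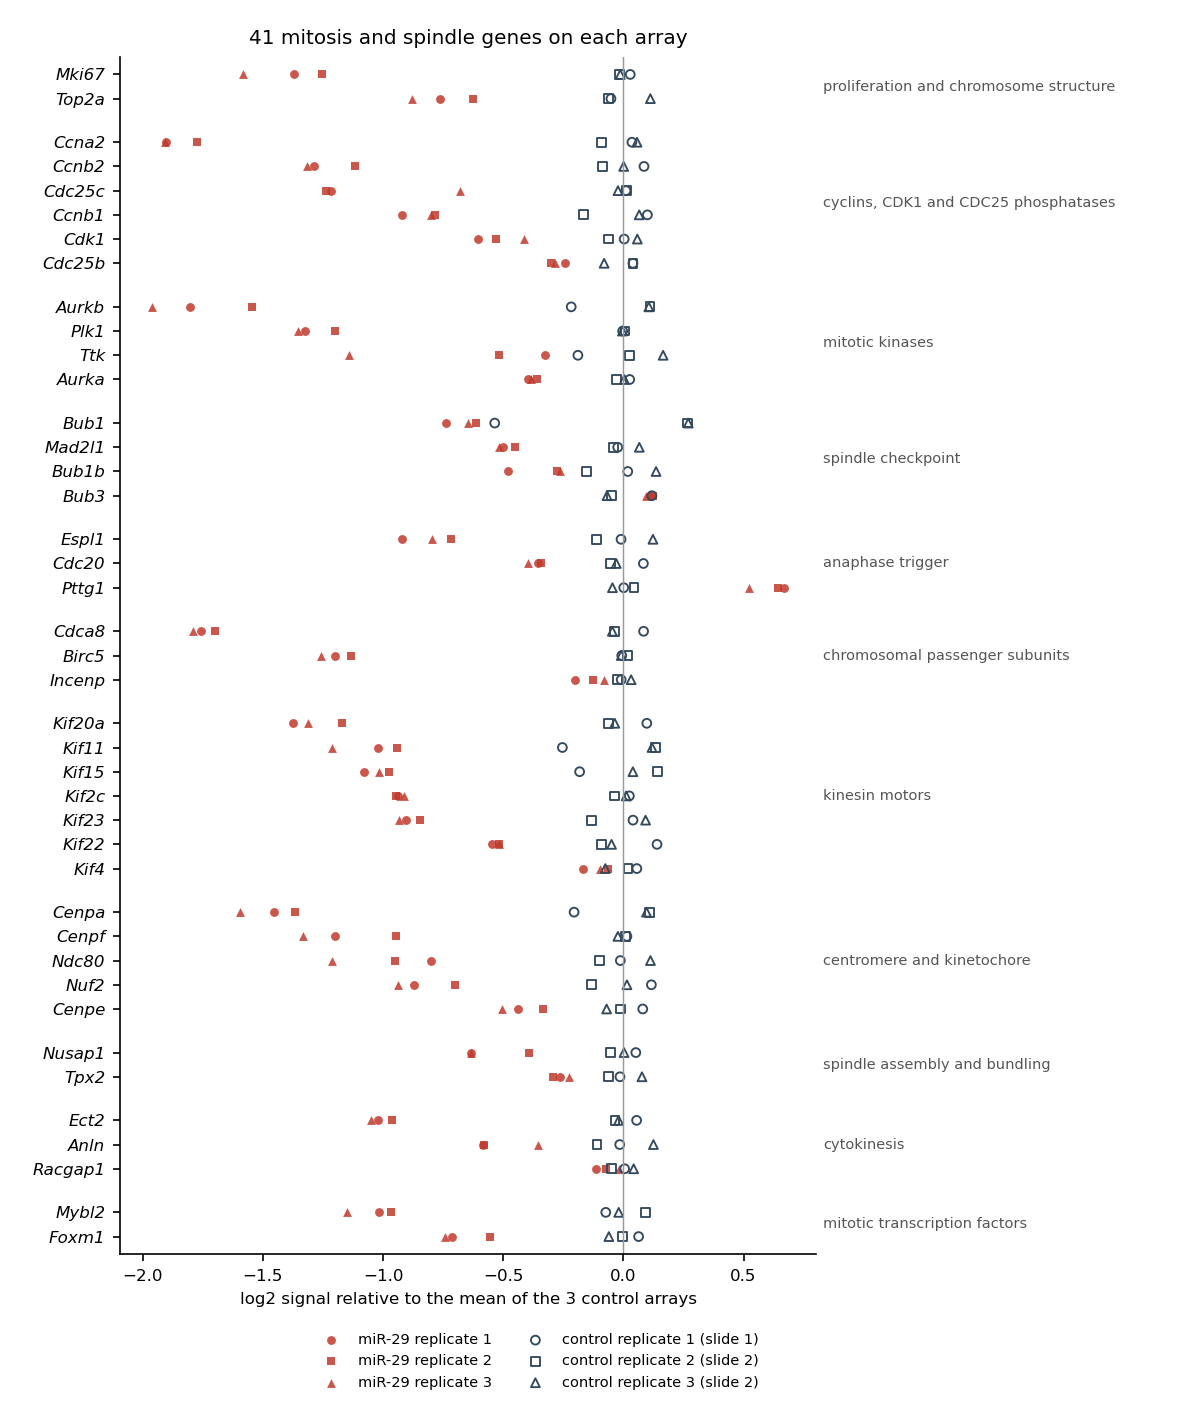
Log2 signal of each of the 41 mitosis and spindle genes on each array, relative to the mean of the 3 control arrays (filled red: miR-29, open: control; marker shape gives the replicate), in groups by role. The miR-29 arrays lie to the left of the control arrays in 37 genes and to the right in Pttg1.

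Proliferation markers and the cyclin and CDK core fell together. Mki67, the gene of the Ki-67 antigen that coats mitotic chromosomes, lay at -0.064, 0.053 and -0.28 after miR-29 and at 1.34, 1.29 and 1.30 in the controls. It fell by 1.40 (SE 0.0894, adjusted p = 0.000104), which is 2.65-fold, and by 1.54 with its other probe. Top2a lay at -2.26, -2.13 and -2.38 on the miR-29 arrays and at -1.55, -1.56 and -1.39 on the control arrays. This topoisomerase gene, needed to untangle sister chromatids, fell by 0.76 (SE 0.086), with groups that did not overlap.

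All 6 genes of cyclins, CDK1 and CDC25 phosphatases fell, with a median of -0.94. The S- and M-phase cyclin gene Ccna2 lay at -1.13, -1.0 and -1.13 on the miR-29 arrays and at 0.81, 0.68 and 0.83 on the control arrays. It showed the largest fall of the 41, 1.86 (SE 0.0665, adjusted p = 3.14e-05) or 3.63-fold. Ccnb2 lay at 0.41, 0.57 and 0.37 on the miR-29 arrays and at 1.78, 1.60 and 1.69 on the control arrays; this B-type cyclin gene fell by 1.24 (SE 0.0764). The other B-type cyclin gene, Ccnb1, fell by 0.83, 1.05 and 0.89 with its 3 probes, the first being the brightest. Their partner kinase gene Cdk1 fell less, by 0.52 (SE 0.0668, 1.43-fold). The phosphatase gene Cdc25c lay at -5.06, -5.08 and -4.52 on the miR-29 arrays and at -3.83, -3.83 and -3.87 on the control arrays, with a miR-29 replicate 3 closer to the controls than the other arrays of its group. It fell by 1.05 (SE 0.155), and its other probe, not well above background on any miR-29 array, was at least 2.14-fold lower (the control mean against the lowest signal well above background, or the probe's own value where that was higher). The related Cdc25b fell by 0.28 (SE 0.054), the smallest fall of this group, and by 0.41 and 0.57 with its other probes.

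The 4 mitotic kinase genes fell by unequal amounts. Aurkb, the kinase gene of the chromosomal passenger complex, lay at -3.42, -3.16 and -3.58 after miR-29 and at -1.84, -1.51 and -1.51 in the controls. It fell by 1.77 (SE 0.139, adjusted p = 0.000203), 3.41-fold. Plk1 lay at 0.49, 0.62 and 0.47 on the miR-29 arrays and at 1.82, 1.83 and 1.81 on the control arrays. The control arrays of this gene, the kinase of centrosome maturation and mitotic entry, differed by less than any miR-29 array differed from them, and the fall was 1.29 (SE 0.0558). Aurka, the spindle pole kinase gene, fell by 0.38 (SE 0.0438). Ttk lay at -5.27, -5.47 and -6.09 on the miR-29 arrays and at -5.14, -4.92 and -4.78 on the control arrays, a dim probe with 1 low miR-29 array. This checkpoint kinase gene, also known as Mps1, fell by 0.66 (SE 0.222, adjusted p = 0.0436). It did not pass under normexp background correction (-0.076, adjusted p = 0.445), without the filter on dim probes (adjusted p = 0.0912), or once slide was blocked (-0.47, adjusted p = 0.276). Leaving out miR-29 replicate 2 gave -0.73 (adjusted p = 0.0746), control replicate 2 gave -0.65 (adjusted p = 0.1) and control replicate 3 gave -0.58 (adjusted p = 0.124), none of which passed. Without miR-29 replicate 3, the low array, the value was -0.42 (adjusted p = 0.0441).

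Among the spindle checkpoint genes 3 of 4 fell and the median was -0.41. Mad2l1 lay at -1.14, -1.09 and -1.16 on the miR-29 arrays and at -0.66, -0.68 and -0.57 on the control arrays. This gene of the inhibitor that binds CDC20 fell by 0.49 (SE 0.0519, adjusted p = 0.000571). Bub1b lay at -1.97, -1.77 and -1.75 on the miR-29 arrays and at -1.47, -1.65 and -1.35 on the control arrays. This gene, which encodes BUBR1, fell by 0.34 (adjusted p = 0.027). It no longer passed once slide was blocked (-0.36, adjusted p = 0.103), without the filter on dim probes (adjusted p = 0.0657), nor when miR-29 replicate 1 or 2 or control replicate 1 or 3 was left out (-0.27, -0.37, -0.33 and -0.27, with adjusted p between 0.0532 and 0.0782). The kinase gene Bub1 lay at -1.05, -0.93 and -0.96 on the miR-29 arrays and at -0.85, -0.051 and -0.046 on the control arrays. Control replicate 1, the control on the slide of the miR-29 arrays, lay close to the miR-29 arrays, and the other controls lay above. The fall of 0.67 (SE 0.225, adjusted p = 0.0446) came to -0.13 when slide was blocked (adjusted p = 0.177). It also did not pass without the filter on dim probes (adjusted p = 0.0929), without any single miR-29 array (-0.63, -0.69 and -0.68) or without control replicate 2 or 3 (both -0.53); in the last 5 cases the adjusted p lay between 0.0962 and 0.127. The other probe of Bub1 lay at -3.06, -2.63 and -2.93 after miR-29 and at -1.76, -1.68 and -1.63 in the controls, and fell by 1.18 (SE 0.114, limma adjusted p = 0.000392 over all probes), with no control array apart from the rest. These probes are listed under different transcripts of the gene. Bub3 lay at 3.12, 3.12 and 3.10 on the miR-29 arrays and at 3.12, 2.95 and 2.94 on the control arrays. This checkpoint subunit gene did not pass (0.11, SE 0.0637, adjusted p = 0.184), and neither did its other probe (0.12). Its sign turned with spike-in scaling (-0.14) and with slide as a block (-0.0094), and it passed as higher without control replicate 1 (0.17, adjusted p = 0.0161).

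The genes of the anaphase trigger went in opposite directions. Espl1 lay at -2.86, -2.66 and -2.74 on the miR-29 arrays and at -1.95, -2.05 and -1.82 on the control arrays. Espl1 encodes separase, the protease that cuts cohesin, and fell by 0.81 (SE 0.0841). Cdc20 lay at 2.35, 2.36 and 2.31 on the miR-29 arrays and at 2.79, 2.65 and 2.68 on the control arrays. Cdc20, the activator gene of the anaphase-promoting complex, fell by 0.37 (SE 0.0548, 1.29-fold). Pttg1 encodes securin, the inhibitor that holds separase until anaphase. Pttg1 lay at 4.15, 4.12 and 4.00 on the miR-29 arrays and at 3.48, 3.52 and 3.43 on the control arrays. The groups of this gene did not overlap, and it rose by 0.61 (SE 0.0587, adjusted p = 0.000405), 1.53-fold. The rise was 0.61 with the slide as a block and 0.36 with spike-in scaling, and it passed in both. Pttg1 had 1 probe.

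Of the chromosomal passenger subunits, which hold Aurora B at centromeres and the midzone, 2 of 3 fell. Cdca8 lay at 0.27, 0.34 and 0.24 on the miR-29 arrays and at 2.12, 2.00 and 1.99 on the control arrays. This gene of borealin fell by 1.75 (SE 0.0577, adjusted p = 2.9e-05), 3.36-fold, and by 1.81 with its other probe. Birc5 lay at 1.32, 1.39 and 1.26 on the miR-29 arrays and at 2.51, 2.54 and 2.51 on the control arrays. Birc5 encodes survivin and fell by 1.20 (SE 0.0509). Incenp lay at 2.46, 2.53 and 2.58 on the miR-29 arrays and at 2.65, 2.64 and 2.69 on the control arrays. The scaffold gene Incenp did not pass (-0.14, SE 0.0516, adjusted p = 0.0648), although its groups did not overlap. It passed as lower with spike-in scaling (-0.39), quantile normalization (-0.20), the deposited table (-0.19) and another variance model (adjusted p = 0.032).

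Kinesin motor genes fell in 6 of 7 cases, with a median of -0.93. Kif20a lay at 0.059, 0.26 and 0.12 on the miR-29 arrays and at 1.53, 1.37 and 1.40 on the control arrays. Kif20a, a motor of the central spindle and cleavage furrow, fell by 1.29 (SE 0.0753). The dim probe of Kif11 lay at -5.00, -4.92 and -5.19 on the miR-29 arrays and at -4.24, -3.85 and -3.86 on the control arrays. This gene of the motor that pushes spindle poles apart fell by 1.06 (SE 0.129), and the Kif15 gene, whose motor backs it up, lay at -5.48, -5.37 and -5.41 after miR-29 and at -4.58, -4.25 and -4.36 in the controls and fell by 1.03. With normexp background correction the falls of Kif11 and Kif15 shrank to 0.28 and 0.24. Kif2c, a microtubule depolymerase gene, Kif23, a centralspindlin motor gene, and Kif22, a chromosome arm motor gene, fell by 0.93, 0.90 and 0.53. Kif4 lay at -0.74, -0.64 and -0.67 on the miR-29 arrays and at -0.52, -0.55 and -0.65 on the control arrays. This chromokinesin gene did not pass (-0.11, SE 0.0571, adjusted p = 0.145), and its groups overlapped. Its other probe fell by 0.25 (limma adjusted p = 0.0177 over all probes), and the gene passed as lower with spike-in scaling (-0.36), the deposited table (-0.16) and the mean of its probes (-0.18).

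All 5 centromere and kinetochore genes fell, with a median of -0.99. Cenpa lay at -1.59, -1.50 and -1.73 on the miR-29 arrays and at -0.34, -0.027 and -0.039 on the control arrays. This gene of the histone variant that marks centromeres fell by 1.47 (SE 0.108, adjusted p = 0.00016), 2.77-fold. Cenpf lay at -1.21, -0.95 and -1.34 on the miR-29 arrays and at 0.0083, 0.002 and -0.029 on the control arrays, and fell by 1.16 (SE 0.102). Cenpf encodes a large protein of the outer kinetochore that accumulates late in the cycle. Ndc80 lay at -3.61, -3.76 and -4.03 on the miR-29 arrays and at -2.83, -2.92 and -2.70 on the control arrays. Ndc80 and Nuf2, partners in the complex that grips microtubule ends, fell by 0.99 (SE 0.118) and 0.84 (SE 0.0918). Cenpe, a kinetochore motor gene, fell by 0.43 (SE 0.068) and by 0.73 with its other probe.

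Spindle assembly, cytokinesis and transcription factor genes completed the set. Nusap1 lay at -1.92, -1.68 and -1.92 on the miR-29 arrays and at -1.23, -1.34 and -1.28 on the control arrays. This microtubule-bundling protein gene fell by 0.55 (SE 0.0814). Tpx2 lay at 0.40, 0.37 and 0.43 on the miR-29 arrays and at 0.65, 0.60 and 0.74 on the control arrays. Tpx2, the activator gene of Aurora A, fell by 0.26 (SE 0.055), the smallest fall that passed. Ect2 lay at -0.75, -0.70 and -0.78 on the miR-29 arrays and at 0.32, 0.23 and 0.25 on the control arrays. Ect2, the exchange factor gene that turns on RhoA at the furrow, fell by 1.01 (SE 0.0509, 2.01-fold); its other, dimmer probe had -0.35 and did not pass. Anln lay at -1.97, -1.96 and -1.74 on the miR-29 arrays and at -1.40, -1.50 and -1.26 on the control arrays. The furrow scaffold gene Anln fell by 0.51 (SE 0.0924). Racgap1 lay at -1.97, -1.93 and -1.87 on the miR-29 arrays and at -1.85, -1.90 and -1.81 on the control arrays. Racgap1, whose protein joins Kif23 in centralspindlin, did not pass (-0.068, SE 0.0511, adjusted p = 0.287), and its groups overlapped. Its probes disagreed, since the other rose by 0.35 (limma adjusted p = 0.014 over all probes); with spike-in scaling the brightest passed as lower (-0.32). Both transcription factor genes that drive the set fell. Mybl2 lay at -2.63, -2.58 and -2.76 on the miR-29 arrays and at -1.69, -1.52 and -1.63 on the control arrays. Mybl2, the gene of B-MYB, fell by 1.05 (SE 0.0724), 2.06-fold. Foxm1 lay at -0.62, -0.46 and -0.65 on the miR-29 arrays and at 0.16, 0.092 and 0.035 on the control arrays. Foxm1 fell by 0.67 (SE 0.069, 1.59-fold).

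**Figure D2:**
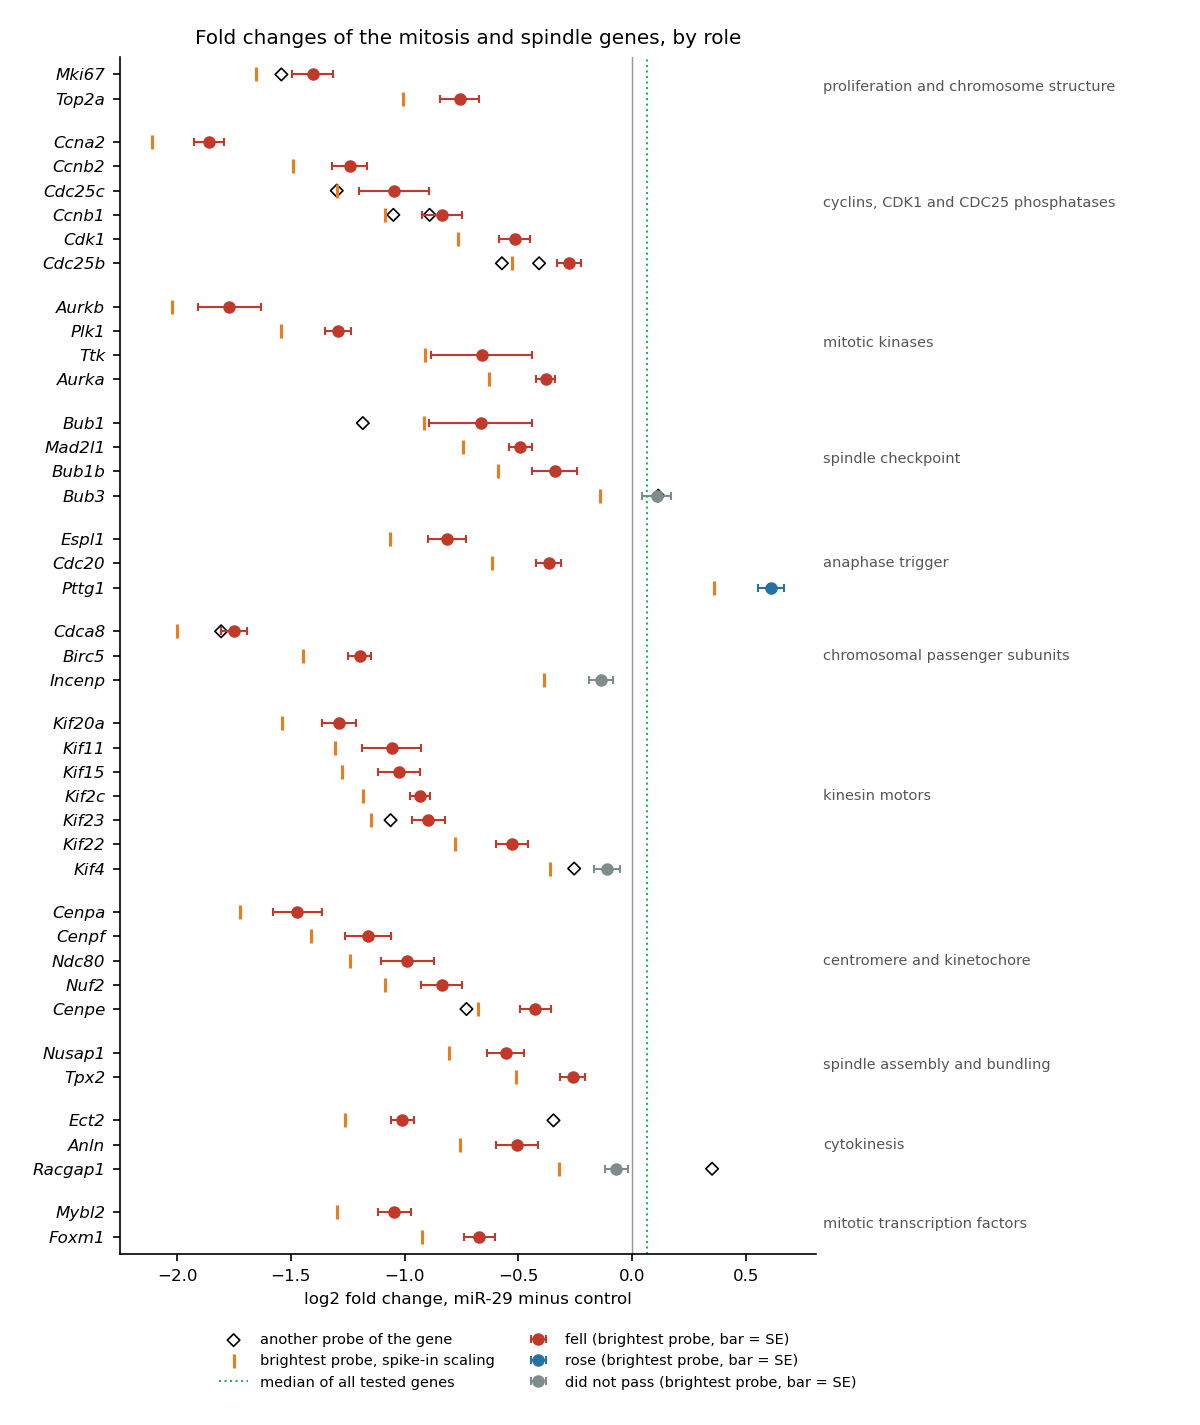
Log2 fold changes (miR-29 minus control, bars: SE) of the 41 genes by role, with other kept probes of a gene as open diamonds and the value with spike-in scaling as an orange tick. Falls reach 1.86 in Ccna2, Pttg1 rose by 0.61, and Bub3, Incenp, Kif4 and Racgap1 did not pass.

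A second look at the falls came from the probes that did not represent the gene. The array held 62 probes of the 41 genes, of which 55 passed the filter on dim signals, and 12 genes had more than 1 such probe. Of the 14 additional probes 11 were lower, 1 was higher and 2 did not pass (limma, adjusted over all probes); over all probes 22.7% were lower and 35.3% higher. The higher one was that of Racgap1. The 11 lower ones belong to 9 genes. Among them, the Cdc25c probe was well above background only in the controls, through which it passed the filter. It therefore gives only a bound.

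Promoters were examined because the genes moved together. RefSeq (GRCm38.p6, another build than the mm9 of the array design) gave 38 promoters, 250 bases before to 50 after the start site, for 35 of the 42 genes. Ccna2, Cdc25c, Aurkb, Incenp, Kif20a, Tpx2 and Foxm1 were not matched. The cell cycle homology region (CHR), the element through which DREAM and MuvB bind, was searched as TTTGAA or TTCGAA on both strands, the CCAAT box as CCAAT and the E2F motif as TTTCGCGC, TTTCCCGC or TTTGGCGC. A CHR match was found in 30 of the 38 promoters (78.9%), against 19.2% of all 32851 promoters of the same length. Counts for the CCAAT box were 28 (73.7%, against 37.4%), and both motifs stood together in 26 (68.4%, against 7.52%). The E2F motif was in 2 (5.26%, against 1.84%). The motifs were also common in 147 promoters of the other mitosis genes described below. There the CHR was in 38.8%, the CCAAT box in 55.1%, both in 24.5% and the E2F motif in 11.6%. In a window chosen after the first search, 60 bases before to 50 after the start, a CHR match was found in 27 of the 38 promoters (71.1%). The shares in this window were 27.2% for the other mitosis genes and 5.9% for all promoters. Among the 38 promoters a CHR match overlapped a CCAAT match in 1 case, and 0 E2F matches overlapped either. By gene, a CHR match was found for 23 of 30 that fell and for 3 of 4 that did not, namely Bub3, Kif4 and Racgap1; Pttg1 had none of the motifs. The 26 tested genes with a CHR match had a median log2 fold change of -0.78, and the 8 without one -0.69. A match is a run of letters and no evidence of binding.

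The 100 bases before the start are shown for measured genes with both motifs upstream of it, the CHR within 60 bases, and for Pttg1, which rose, with CHR and CCAAT letters of either strand in capitals. Kif11 lies on chr19:37376282-37376381 (plus strand), Espl1 on chr15:102296193-102296292 (plus), Top2a on chr11:99024190-99024289 (minus), Kif22 on chr7:127042421-127042520 (minus), Cdk1 on chr10:69352913-69353012 (minus) and Cdc20 on chr4:118437344-118437443 (minus). The Bub3 stretch is chr7:131560270-131560369 (plus) and that of Pttg1 chr11:43425982-43426081 (minus). In these stretches the CHR stands closer to the start than a CCAAT box in each gene but Pttg1, and in Cdc20 and Bub3 another CCAAT box follows it. The Cdk1 stretch holds a further CHR match upstream, between its CCAAT boxes.
Kif11: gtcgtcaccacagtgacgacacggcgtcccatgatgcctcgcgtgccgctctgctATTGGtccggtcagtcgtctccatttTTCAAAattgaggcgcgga
Espl1: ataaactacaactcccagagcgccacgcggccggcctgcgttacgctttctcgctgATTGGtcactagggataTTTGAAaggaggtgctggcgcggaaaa
Top2a: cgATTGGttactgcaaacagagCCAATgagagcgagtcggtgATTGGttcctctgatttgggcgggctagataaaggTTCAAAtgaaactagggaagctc
Kif22: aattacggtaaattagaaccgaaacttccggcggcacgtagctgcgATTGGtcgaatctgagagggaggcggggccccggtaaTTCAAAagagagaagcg
Cdk1: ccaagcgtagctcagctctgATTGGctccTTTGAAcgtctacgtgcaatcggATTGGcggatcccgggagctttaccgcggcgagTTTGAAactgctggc
Cdc20: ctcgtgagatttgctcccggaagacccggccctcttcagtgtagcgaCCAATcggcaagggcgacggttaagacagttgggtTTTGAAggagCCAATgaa
Bub3: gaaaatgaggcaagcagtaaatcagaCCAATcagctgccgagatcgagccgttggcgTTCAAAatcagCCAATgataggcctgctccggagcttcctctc
Pttg1: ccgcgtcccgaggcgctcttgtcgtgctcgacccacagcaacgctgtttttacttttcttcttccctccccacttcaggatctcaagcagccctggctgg

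**Figure D3:**
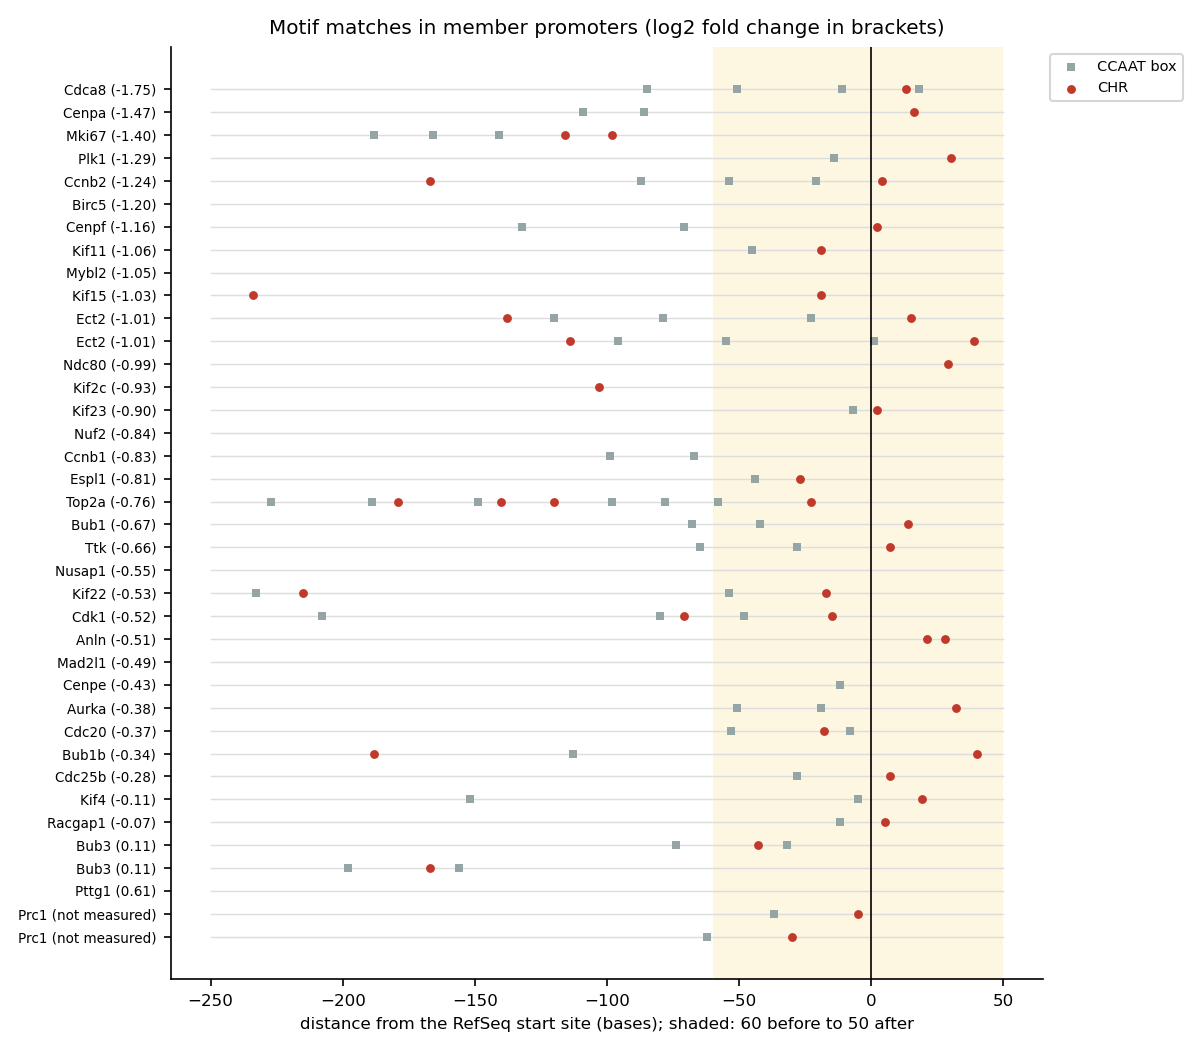
Position of CHR (red circles) and CCAAT box matches (grey squares) in the 38 promoters, in bases from the RefSeq start site (left end of each match), with genes ordered from the largest fall at the top and the log2 fold change in brackets. CHR matches gather in the shaded window, where 27 of 38 promoters hold one, among genes that fell and those that did not.

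Other genes of mitosis, 145 of 153 written, changed less uniformly. Of these, 63 fell (43.4%) and 40 rose, while 42 missed the threshold, and their median was -0.13. Over all genes 22.7% were lower and 35.3% higher, the shares to set beside each list that follows. With spike-in scaling 88 fell and 12 rose (over all genes 38.5% lower and 15.2% higher). Among 31 kinetochore genes 14 fell and 5 rose. Ska1, whose protein couples kinetochores to spindle microtubules, fell by 1.58 (SE 0.0618), the NDC80 complex gene Spc24 by 1.37 and the MIS12 complex gene Nsl1 by 1.09, and the inner kinetochore gene Cenpp rose by 0.75. Of 19 condensin and cohesin genes 8 fell and 4 rose. The cohesin acetyltransferase gene Esco2 fell by 1.16 (well above background on 1 of 3 miR-29 arrays), the condensin genes Ncaph and Ncapg2 by 1.01 and 0.67, and the cohesin gene Stag1 rose by 0.35. Of 16 genes of the anaphase-promoting complex and mitotic exit 5 fell and 6 rose, and with spike-in scaling 7 fell and 1 rose. The 5 that fell are 31.25% of this list, not far from the share over all genes. The falls were led by the ubiquitin-conjugating enzyme gene Ube2c (-0.76), the inhibitor gene Fbxo5 (-0.70) and the subunit gene Cdc23 (-0.64), and the largest rise was that of the subunit gene Anapc13 (0.45).

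Of 16 centrosome and centriole genes 7 fell and 4 rose, with Aspm, the gene of a spindle pole protein, at -1.34 (SE 0.142), the centriole duplication gene Stil at -0.82, the midbody gene Cep55 at -0.73, and the centrosome gene Cdk5rap2 at 0.68. Among 21 kinesins and spindle proteins 11 fell and 8 rose. The falls were largest in Hmmr (-1.39), Ckap2l (-1.07) and Kntc1 (-1.02), and the beta-tubulin gene Tubb5 rose by 0.74. Kntc1, a kinetochore gene, also stands in the kinetochore list. It is counted in each of these lists, but not doubled in the total over all other mitosis genes. Genes of mitotic entry fell in 10 of 15 cases and rose in 2: the kinase gene Melk fell by 1.22, Cdca3 by 0.95 and Gtse1 by 0.58, and Cdc25a, the phosphatase gene of the G1/S step, rose by 0.52 (SE 0.12). In the further cytokinesis list 5 of 14 fell and 4 rose. Depdc1a and Depdc1b fell by 1.97 and 1.55, the filament gene Septin2 by 1.44, and Pdcd6ip, whose protein acts in membrane scission, rose by 0.92. Depdc1a, Aspm and Stil were dim after miR-29 (means of -4.83, -4.56 and -4.97). Among the members, falls in genes this dim were smaller with normexp background correction, which adds a constant to every signal. In a list of 14 genes of DREAM subunits, E2F factors and pocket proteins 4 fell (28.6%, against 22.7% of all genes) and 7 rose. With spike-in scaling 5 fell and 2 rose. The E2F repressor genes E2f7, dim after miR-29 (mean -4.22), and E2f8 fell by 1.36 and 1.22. These are not counted here as DREAM subunits, and the other falls were those of Lin54 and Tfdp1. E2f5, a partner of the pocket proteins, rose by 0.99 (SE 0.0921).

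Beside the lists nearest in the cell cycle, the 41 mitosis and spindle genes showed the largest median fall, a description without a test of the difference. This does not hold for the other mitosis genes, whose median of -0.13 was a smaller fall than those of the lists below. Of 39 genes of DNA replication and S phase 23 fell and 1 rose, with a median of -0.29. The thymidine kinase gene Tk1 fell by 2.02 (SE 0.105) and the licensing gene Cdc6, dim after miR-29 (mean -4.08), by 1.79 (SE 0.0914). Of 12 genes of G1 cyclins, their kinases and CDK inhibitors 8 fell and 2 rose, with a median of -0.31. This median pools genes that drive the cycle with inhibitor genes, and inhibitor genes went both ways. The 2 that rose were the inhibitor genes Cdkn1c (0.74) and Cdkn1b (0.37). Cdkn1a, the gene of the CDK inhibitor p21, lay at 1.75, 1.73 and 1.63 after miR-29 and 2.84, 2.69 and 2.68 in the controls and fell by 1.03 (SE 0.0662), and Cdk2 fell by 0.86. With spike-in scaling the medians were -1.06 for the 41 genes, -0.38 for the other mitosis genes, -0.54 for replication and -0.56 for G1.

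**Figure D4:**
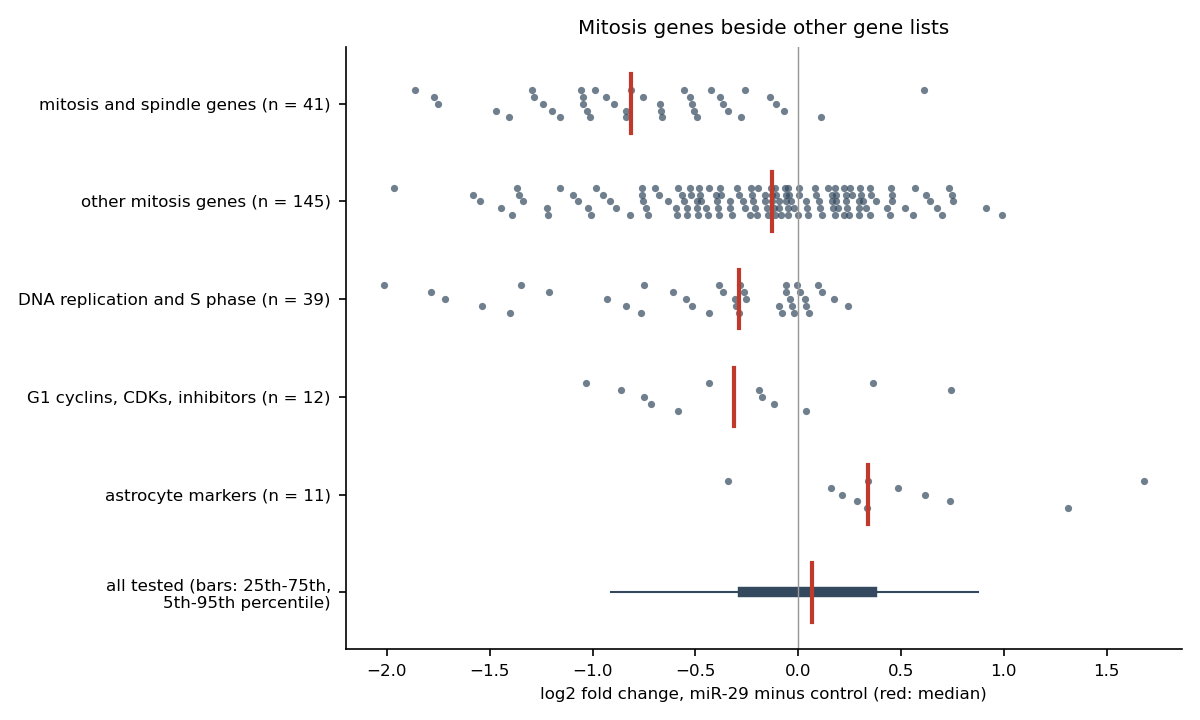
Log2 fold change (miR-29 minus control) of single genes in the mitosis and spindle set, the other mitosis genes, neighbouring cell cycle lists and astrocyte markers, with medians in red; the lowest line gives percentiles of all tested genes. The medians are -0.81, -0.13, -0.29, -0.31 and 0.34 from top to bottom, and 0.068 over all genes.

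Markers of the cells in the cultures were set beside these falls. Of 12 astrocyte markers 11 were well above background on all 6 arrays, all but Gjb6; of the 11 tested 7 rose and 1 fell, and their summed signal (in units of the array's 75th percentile) was 100.3 to 110.8 on the miR-29 arrays and 70.0 to 73.2 on the control arrays. The summed signal of the 41 mitosis genes was 62.7 to 65.9 against 81.6 to 84.8. The brightest of these genes was Pttg1, which rose, with means of 4.09 after miR-29 and 3.48 in the controls. Next came Bub3, which did not pass, with 3.11 and 3.00. Of 10 microglia markers 4 were above background on all 6 arrays, and Aif1, Cx3cr1, C1qa and Ptprc on none. Of the 4 tested 2 fell and 1 rose, with sums of 3.23 to 3.49 against 4.32 to 4.82. Nearly all of these sums is Tmem119, with means of 1.66 after miR-29 and 2.09 in the controls. The next brightest, C1qb, had -3.24 and -2.96. Oligodendrocyte lineage markers, some of which mark dividing precursors, fell in 3 and rose in 4 of 9 cases. Mog was above background on no array. The sums of this list were 7.44 to 7.89 against 7.44 to 12. The control value of 7.44 was that of replicate 1, on the slide of the miR-29 arrays, and the controls on slide 2 lay higher. Mag, the brightest of this list, lay at 2.33, 2.24 and 2.17 after miR-29 and at 2.13, 3.17 and 2.99 in the controls. It did not pass (-0.52, adjusted p = 0.141). On the shared slide the control sum was therefore not above those of the miR-29 arrays. Of 11 tested fibroblast, meningeal and mural markers 4 fell and 6 rose, and Rgs5 was on no array above background. Their sum was lower (605.5 to 639.4 against 789.0 to 848.1) although more of these genes rose than fell. The sum follows a few bright genes. The collagen gene Col1a2 had means of 5.70 after miR-29 and 7.97 in the controls, and Col1a1 5.98 and 7.26. Acta2 went the other way, with 7.92 and 7.31, as did Cnn1, with 6.55 and 5.21. Endothelial markers fell in 2 and rose in 2 of 5 cases (1.96 to 2.05 against 2.44 to 2.82), with Tek and Tie1 never above background, and neuron markers fell in 3 and rose in 3 of 9 (4.90 to 4.97 against 4.83 to 5.03), with Neurod1 never above background. A summed signal follows the brightest genes of its list and is no count of cells. The part of any of these cells in the fall of the mitosis genes was not tested.

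Most of the set was lower under each scaling and with the slide as a block. Spike-in control spots give a scale that does not assume equal total signal. Scaling to the 6 detected spike-in types lowered every log2 fold change by 0.25, after which 39 of the 41 genes were lower and 1 higher. With the slide as a block, which rests on the 3 miR-29 arrays against control replicate 1 alone, 33 were lower and 1 higher, and the median was -0.80, while over all genes 18.3% were lower and 28.7% higher. No miR-29 array was on slide 2, so the contrast has no value there. The size of the fall in dim genes differed with normexp, which adds an offset of 50 to every signal. Such a constant shrinks the fold changes of dim probes by construction, so the background correction itself was not tested apart from it. With normexp the median was -0.48 and 35 were lower (over all genes 21.4% lower and 28% higher). Of the genes that fell, 8 had a fall over 1.5 times smaller. Among these, Cdc25c came to -0.29, Aurkb to -1.05, Espl1 to -0.53, Kif2c to -0.44 and Ndc80 to -0.45, all still past the test.

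**Figure D5:**
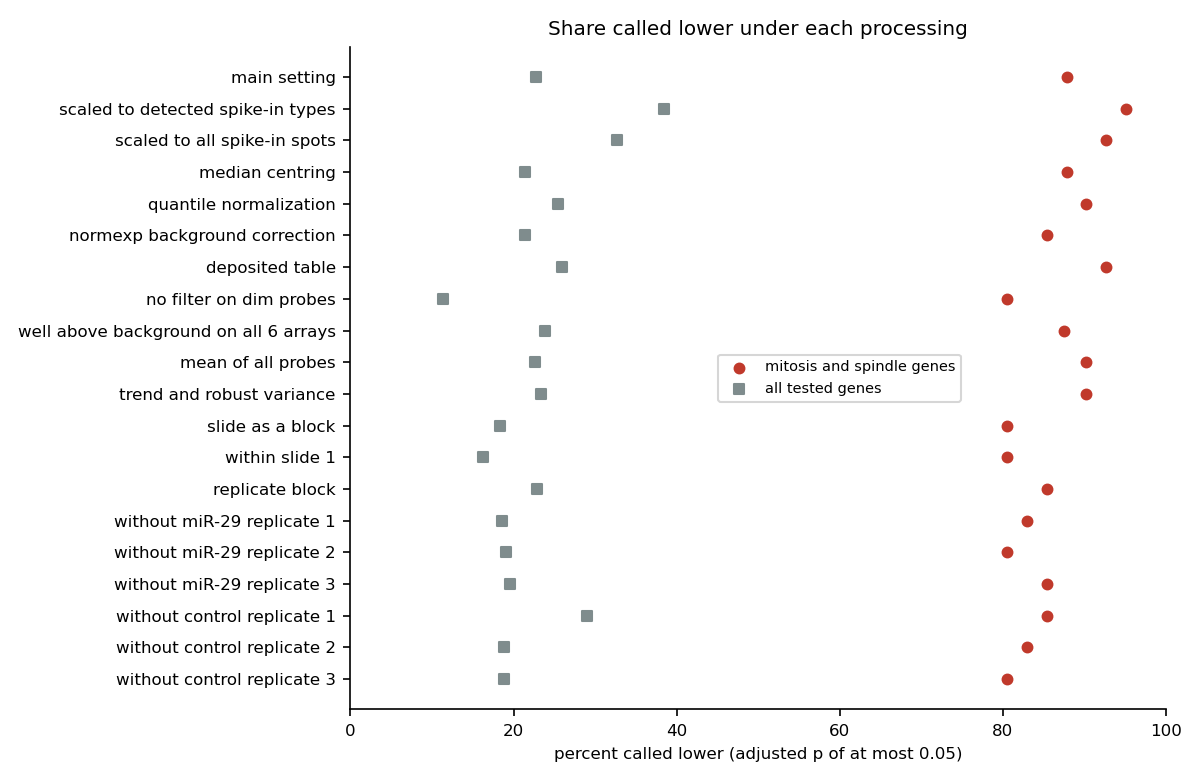
Percent of the mitosis and spindle genes (red) and of all tested genes (grey squares) called lower under each way of processing the arrays. The main setting gives 36 of 41 against 22.7% of all genes, and scaling to the detected spike-in types 39 of 41 against 38.5%.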

How the data were processed

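Per the file headers, Agilent Feature Extraction 10.7.3.1 (10.7 in the submitters' processing notes) gave the deposited spot intensity, with background already subtracted. The authors' value table is that intensity multiplied by 1 constant per array (2.63 to 3.43), linear and not centred, with column medians of 149.3, 155.4 and 148.8 for miR-29 and 146.3, 164.8 and 162.2 for control; the basis of the constants was not given in the sources used here. Values are the log2 of the processed signal (under 1 set to 1) minus the array's 75th percentile over non-control spots; outlier spots were left out and spots of a probe averaged. Probes well above background on all 3 arrays of a group were kept. Accessions without version were matched to RefSeq symbols (26925 of 41174 probes), and a gene is its brightest kept probe. The groups were compared with limma 3.58.1 in R 4.3.3 (two-sided, Benjamini-Hochberg over 19741 genes and transcripts); SE is from this fit, and n = 3 per group. The fit was tested on simulated data. 

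The rule for the members used no measured value, but members and lists were chosen with earlier results of these data known. Values on each array are given for the 3 members with the largest change in each role and for those that rose or did not pass. Of the other mitosis lists, fold changes are given for the 3 largest changes and the largest rise. Of the neighbouring lists they are given for the 2 largest, and in the G1 list also for the genes that rose. Marker genes named with a direction were chosen after their values were seen. The result of 1 marker gene is not reported here. Alternatives were spike-in, median and quantile scaling, normexp (on the median spot signal, since a mean is not in the files), the deposited table, other filters and probes, another variance model, slide and replicate blocks, and each array left out. There were 0 columns of other samples. Deviations of same-numbered arrays from their group means correlated at 0.13, 0.094 and 0.25. The labels name no pairs, so the numbers were not taken as pairs in the main fit, and a fit with them as a block is given below.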

Additional observations from a re-analysis of the deposited data

How the results depend on the processing

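Of the 41 genes, 34 kept their direction and their side of the threshold under every alternative tried; the exceptions are Ttk, Bub1, Bub1b, Bub3, Incenp, Kif4 and Racgap1. The count of lower members ran from 33 to 39, while 11.4% (no filter on dim probes) to 38.5% (detected spike-in types) of all genes were lower. Leaving out 1 array at a time gave 33 to 35 lower and 1 to 2 higher members, the second being Bub3 without control replicate 1, with a median of -0.87 to -0.75. The median was -1.06 with the detected spike-in types, -1.0 with all spike-in spots and -0.48 with normexp; normexp adds an offset of 50 to every signal by construction. At least 2-fold lower were 15 members, but 9 with normexp, and 12 to 15 with 1 array left out (alternatives for this count were chosen after seeing the data). Over all genes 4487 were lower and 6974 higher (60.8% higher), but 7607 and 3010 (28.4% higher) with the detected spike-in types and 3312 higher (33.9%) with all spike-in spots, which moved the median of all genes from 0.068 to -0.18 and -0.12. Of the other mitosis genes 12, 14 and 26 rose with the detected spike-in types, all spike-in spots and within slide 1, against 40. Arrays left out gave 3675 to 5728 lower and 5673 to 7424 higher genes. With the replicate number as a block 35 members were lower and 1 higher (22.9% and 35.5% of all genes); Ttk lost its call (adjusted p = 0.0852). Every array correlated best with its own number, a hint from the data and not the design. With 3 arrays a group, small differences such as that of Incenp are near the limit of the test.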

Other observations

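Neural progenitor markers, the remaining list of cell types fixed for these cultures, went both ways: of 7 tested 3 rose and 2 fell, with a median of 0.047 that was -0.20 with spike-in scaling. Hes5, a Notch target gene, lay at -2.97, -2.85 and -3.31 after miR-29 and at -4.96, -4.44 and -4.51 in the controls and rose by 1.60 (SE 0.18). Sox2 rose by 0.65 and the filament gene Nes by 0.39, while Prom1 fell by 0.31. Eomes was well above background on no array. The summed signal of the list was 321.7 to 381.8 times the 75th percentile on the miR-29 arrays and 308.6 to 350.3 on the control arrays, which overlap.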
